A study of Gallus gallus with 2 samples.

Results

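Chromosome 2 of the chicken (GGA2) is the second longest macrochromosome, and the list of topologically associating domains (TADs) analysed here holds 308 TADs on it, of 2389 TADs on 26 chromosomes. The members were all TADs that the list places on GGA2, with no selection by size. The list comes from Hi-C of the HD3 line (LSCC-HD3), labelled as chicken erythroblasts and in which early erythroid cells grow without limit under an avian erythroblastosis virus whose oncogenes fail at raised temperature. It was cultured without the heat shift that starts differentiation, and the only group was 2 biological replicates of this untreated line, with no control group. HD3 is a single continuous line with a heavily rearranged karyotype. Its GGA2 homologs differ in structure, because an extra copy of a part of the GGA1 long arm is joined to the end of the GGA2 long arm in a derivative chromosome. Contacts of both homologs were read on the order of the reference chromosome, so the TADs are an average over both. The list carries no expression values, and the cell type was therefore not checked against marker genes.

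In Hi-C, DNA ends that lie near each other in the nucleus are joined and sequenced as pairs. A TAD appears as a block of sequence with more contacts within itself than with its neighbours. In vertebrate cells such blocks are known to form largely by loop extrusion, in which cohesin enlarges a loop until it meets bound CTCF, and they tend to keep enhancers and promoters of the same block in contact. In birds, nucleated erythrocytes are known to lose TADs at the end of differentiation, and HD3 stands at an early erythroid stage. The contacts of both replicates were combined before TADs were delimited in bins of 50 kb. There is 1 list, no value per replicate and no contact number per TAD, so neither replicate error nor the depth behind a TAD can be given, and a limit cannot be placed more finely than 1 bin. TADs of a single map are not replicates. For this reason no test is given for any difference below, and the intervals treat TADs as independent and cover only the spread between them. Positions are in GalGal5 and counted from 1. No genome or gene annotation of that assembly was used here, so no sequences or genes are given for the regions.

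TADs of GGA2 had a median size of 250 kb, with quartiles of 100 and 450 kb and a 95% interval of the median from 200 to 250 kb (order statistics, n = 308 TADs). The mean was 375 ± 399 kb (SD, n = 308). The smallest TADs spanned 2 bins, or 100 kb, and the largest spanned 3250 kb. GGA2 held 84 TADs of 100 kb, or 27.3% of its TADs (95% exact binomial interval 22.4% to 32.6%). It held 20 TADs of at least 1 Mb, or 6.49% (95% exact binomial interval 4.01% to 9.85%). The TADs of 100 kb made up only 7.27% of the length inside TADs, and those of at least 1 Mb made up 26.4% of it. The greatest part of the length, 33.1%, lay in the 55 TADs of 500 to 950 kb.

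The sizes of GGA2 resembled those of GGA1 and GGA3, the chromosomes nearest to it in length. All 3 had a median of 250 kb and quartiles of 100 and 450 kb. Over all 2081 TADs outside GGA2 the median was 200 kb, the quartiles 100 and 400 kb, and the mean 345 kb. The lower quartile thus did not set these 3 chromosomes apart. GGA2 shared its median with 6 other chromosomes, none was higher, and 19 were lower. The share of TADs of 100 kb was 28.5% on GGA1, 28.0% on GGA3 and 27.3% over all other chromosomes, beside 27.3% on GGA2. TADs of at least 1 Mb made up 6.68% on GGA1, 9.33% on GGA3 and 5.57% over all other chromosomes, beside 6.49% on GGA2. TADs of 500 to 950 kb were 17.9% of TADs on GGA2, 16.3% on GGA1, 14.7% on GGA3 and 12% over all other chromosomes. Those of 200 to 250 kb were 15.3%, 18.1%, 17.8% and 20.9% in the same order, so GGA1 and GGA3 lay between GGA2 and the whole of the other chromosomes in both classes.

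**Figure D1:**
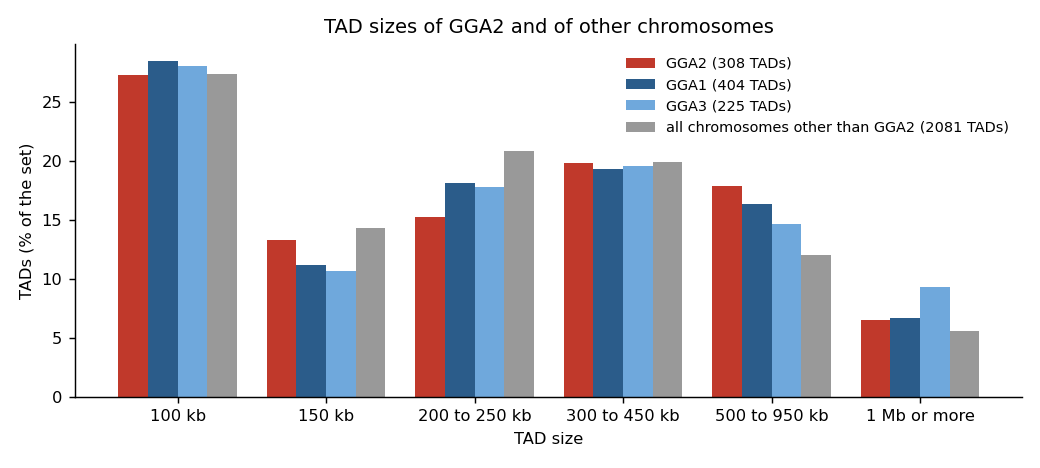
Share of TADs (percent of each set, vertical axis) in 6 classes of size for GGA2, GGA1, GGA3 and all chromosomes other than GGA2, which include GGA1 and GGA3. The bars for 100 kb stand between 27.3% and 28.5%, and GGA2 has the tallest bar at 500 to 950 kb, 17.9%.

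In the order of TADs along the chromosome, GGA2 had long tiled ends, and its TADs were most broken up from 62.35 to 124.6 Mb. Of the 307 pairs of neighbouring TADs, 208 (67.8%, 95% exact binomial interval 62.2% to 73.0%) adjoined with no bin between them, against 67.5% on GGA1, 70.5% on GGA3 and 77.3% over all other chromosomes. Only 4 of the 26 chromosomes had a lower share than GGA2. TADs covered 77.2% of the chromosome, taken up to where its last TAD ended, and 18 chromosomes had a higher share. The share was 84.1% on GGA1 and 78.9% on GGA3. In all, 34.12 Mb of GGA2 lay outside TADs. No other chromosome of the list had as much, and GGA1, although longer, had 31.15 Mb.

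**Figure D2:**
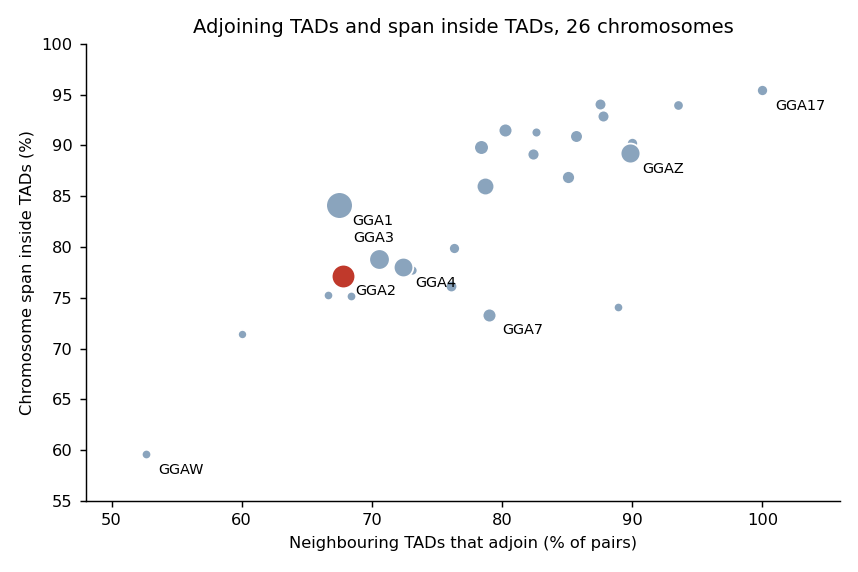
Share of neighbouring TADs that adjoin (percent of pairs, horizontal axis) and share of the span inside TADs (percent, vertical axis) for 26 chromosomes, with the area of a point growing with the number of TADs. GGA2, in red at 67.8% and 77.2%, lies in the lower left part of the plot, next to GGA3, while GGA1 adjoins as often but has more of its span inside TADs.

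The first 25 Mb held 55 TADs with a median of 350 kb (quartiles 200 and 625 kb), and 98.2% of this end lay inside TADs. The last 25 Mb, up to the last TAD end at 149600000, held 52 TADs with a median of 250 kb (quartiles 138 and 550 kb), and 97.2% lay inside TADs. Each of these ends held a single TAD that adjoined no other. From 25 Mb to 62.35 Mb, where a long run of TADs ended, there were 100 TADs with a median of 150 kb. They covered 82.7% of this sequence, beside 82.8% inside TADs over the whole list. The 62.25 Mb that followed held 101 TADs with a median of 250 kb, but only 57.4% of the sequence was inside TADs, and 46 of these TADs (45.5%) stood alone. Over all of GGA2, 21.1% of TADs stood alone. The limits of these 4 parts were chosen after the list had been seen. Between its first and last 25 Mb GGA2 had 66.9% of the sequence inside TADs. The same value was 80.3% on GGA1, 73.0% on GGA3, 77.0% on GGA4 and 95.2% on GGAZ, the other long chromosomes of the list. Both ends were above the part between them on GGA1 (92.8% and 98.0%) and on GGA3 (92.8% and 79.2%). On GGA4 and GGAZ, by contrast, the last 25 Mb had less inside TADs (65.2% and 71.6%) than the part between the ends.

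**Figure D3:**
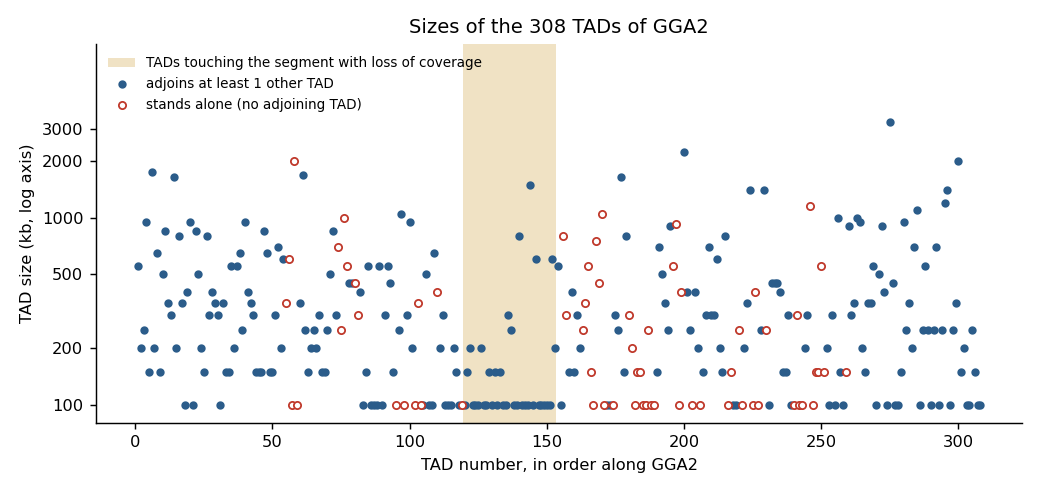
Size of each of the 308 TADs of GGA2 (kb, log axis) against its number in order along the chromosome, with filled points for TADs that adjoin another and open points for TADs that stand alone. Open points are nearly absent at both ends of the chromosome, and TADs of 100 kb gather in the shaded group of 34 TADs that touch the segment with loss of coverage.

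Adjoining TADs formed 100 runs on GGA2, counting a TAD that stands alone as a run of its own. There were 65 such single TADs and 11 runs of 2 TADs. Single TADs were 21.1% of TADs on GGA2, 17.3% on GGA1, 15.6% on GGA3 and 12.6% over the whole list. At the other extreme, 9 runs of at least 10 TADs held 150 TADs (48.7%) and 58.4 Mb, or 50.6% of the length inside TADs. The longest run lay at the very end of the long arm, from 136900001 to 149600000. It joined 30 TADs over 12.7 Mb, and 4 of the 591 runs in the list had more TADs and 2 had a greater length. The run with the next highest number on GGA2, 21 TADs from 56250001 to 62350000, spanned 6.1 Mb. It was followed by 18 TADs over 9.95 Mb from 1 to 9950000, which opened the chromosome, and by 17 TADs over 10.8 Mb from 125500001 to 136300000. A run of 15 TADs reached from 15500001 to 20800000 (5.3 Mb), and another 15 TADs reached from 54300001 to 56200000 (1.9 Mb).

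The last of these runs and the run from 125500001 to 136300000 were opposites in mean TAD size. Among the 68 runs of at least 10 TADs in the list, the run from 54300001 to 56200000 had the smallest mean size, 127 kb, with TADs of 100 to 200 kb. The next smallest mean, 192 kb, was that of a run of 12 TADs on GGA13. The run from 125500001 to 136300000 had the largest mean of the 68, at 635 kb, with sizes of 100 to 3250 kb. That mean includes the largest TAD of GGA2, and the median of the run was 400 kb. The run at the start of the chromosome had a mean of 553 kb and a median of 350 kb, and its mean ranked 66 from the smallest.

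TADs that stood alone were smaller than TADs in runs. Their median was 150 kb (n = 65) against 250 kb for the 243 TADs in runs of GGA2, and 40% of them had 100 kb against 23.9%. The medians were 150 and 250 kb on GGA1 and 100 and 250 kb on GGA3. Of the 14 chromosomes with at least 5 single TADs, the single TADs had the smaller median on 12 and the larger on 2. Single TADs of GGA2 nevertheless reached 2000 kb. Within runs, the size of a TAD said little of the size of the next. Spearman's rho between adjoining TADs was 0.09 over 208 pairs of GGA2, -0.003 over 272 pairs of GGA1 and 0.02 over 158 pairs of GGA3, where each TAD inside a run enters 2 pairs.

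Between the TADs of GGA2 there were 99 stretches without TADs, and none before the first TAD, which started at position 1. Of these, 95 were at least 100 kb long. Only 4 were of 1 bin or less, as were 19 of all 565 stretches in the list, whereas 30 of GGA2 had exactly 100 kb. The number of stretches of at least 100 kb was 0.635 per Mb on GGA2, 0.652 on GGA1 and 0.575 on GGA3. GGA1 thus had as many per Mb, but its longest had 800 kb, while the longest of GGA2 had 2000 kb and that of GGA3 2050 kb. On GGA2, 18 stretches reached at least 500 kb and together took 17.55 Mb, or 51.4% of the sequence outside TADs. On GGA1, 17 such stretches took 10.7 Mb. The shorter GGA3 also had 17, which took 14.9 Mb of its 23.55 Mb outside TADs, so long stretches were not particular to GGA2.

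The longest stretch of GGA2 ran from 84350001 to 86350000 (2000 kb), and 4 stretches in the list were longer, on GGA3, GGA4, GGA7 and GGAZ. The next began at 98900001 (1700 kb), 74650001 (1650 kb), 87750001 (1500 kb) and 86450001 (1200 kb). A stretch of 1150 kb from 62350001 to 63500000 closed the run of 21 TADs. Stretches of 950 kb began at 82000001 and 104500001, one of 850 kb at 81000001 and one of 750 kb at 72550001. Of these 10, 7 began between 70 and 90 Mb. From 84350001 to 89250000 only a pair of TADs of 100 kb, from 86350001 to 86450000 and from 87650001 to 87750000, broke the sequence without TADs. Unassembled bases, repeats and read coverage in these stretches were not analysed here, and their part in the absence of TADs was not tested.

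In windows of 10 Mb, the share inside TADs ranged from 99.5% in the first window to 20.0% from 80 to 90 Mb, where the list holds 11 TADs. This was the lowest share of all 89 full windows, 14 on GGA2 and 75 on other chromosomes, where it ranged from 46.0% to 100%. Chromosomes that span less than 10 Mb hold no full window and are not among them. The window from 70 to 80 Mb had 56.5%. The share was 65.0% from 60 to 70 Mb and 76.8% from 90 to 100 Mb. It was lower again from 100 to 110 Mb (64.0%) and from 110 to 120 Mb (69.5%), and reached 96.0% from 130 to 140 Mb. The number of boundaries, that is, of distinct starts and ends of TADs, was 2.73 per Mb on GGA2, 2.73 on GGA1 and 2.62 on GGA3. This number was highest on short chromosomes without a full window, with 5.77 per Mb on GGAW, 4.95 on GGA26 and 4.78 on GGA27. Along GGA2 it ranged from 1.9 per Mb in the windows from 0 to 10 and from 130 to 140 Mb to 4.5 per Mb from 50 to 60 Mb. Windows with few boundaries were thus of different kinds. Those from 0 to 10 and from 130 to 140 Mb had 99.5% and 96.0% of their sequence inside TADs, whereas those from 70 to 80 and from 80 to 90 Mb, with 2.0 boundaries per Mb each, had 56.5% and 20.0%.

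**Figure D4:**
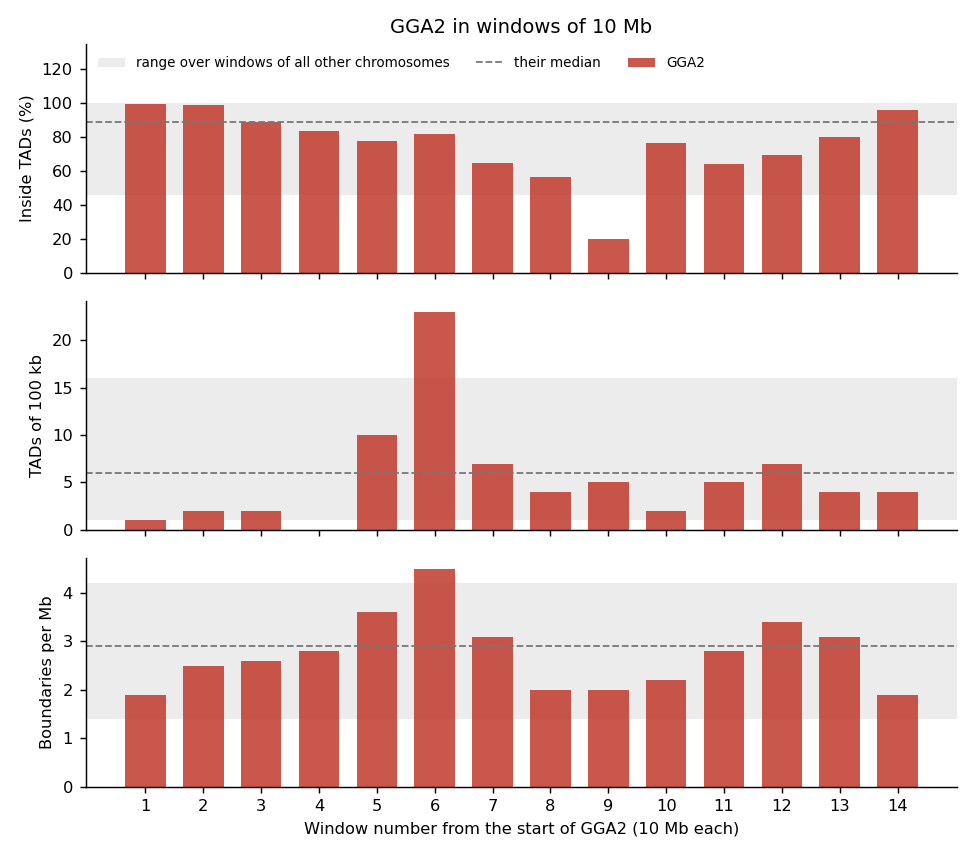
Share inside TADs (percent), number of TADs of 100 kb and boundaries per Mb in the 14 full windows of 10 Mb along GGA2 (red bars). The range (grey) and the median (dashed) are those of the 75 full windows of other chromosomes. Chromosomes that span less than 10 Mb have no full window and are left out. Window 9 falls below the grey range in the share inside TADs, with 20.0%, and window 6 stands above it with 23 TADs of 100 kb and 4.5 boundaries per Mb.

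The 20 TADs of at least 1 Mb took 30.5 Mb of GGA2. The largest lay from 132600001 to 135850000 (3250 kb), between TADs of 100 and 450 kb. It was followed in size by a TAD of 2250 kb from 94550001 to 96800000, and by TADs of 2000 kb from 26300001 to 28300000 and from 146450001 to 148450000. Near the chromosome start were a TAD of 1750 kb from 2100001 to 3850000 and a TAD of 1650 kb from 6850001 to 8500000. A TAD of 1700 kb spanned 29000001 to 30700000 and one of 1650 kb spanned 76850001 to 78500000, and the TAD of 1500 kb at 58200001 to 59700000 belonged to a segment described further on. The 3 TADs of 1400 kb started at 108400001, 111700001 and 144350001. GGA1 and GGA3 had larger TADs at the top of their range (6900 and 3850 kb), and on 6 chromosomes the largest TAD was above that of GGA2.

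These large domains were found in all 4 parts of the chromosome, 6 of them in the last 25 Mb. Of the 20, 11 adjoined TADs on both sides, 5 on 1 side and 4 stood alone. The 27 TADs that adjoined them had a median of 250 kb, the same as GGA2 as a whole, and 5 of them had 100 kb. Only in a single place did large domains adjoin each other, where 1200 kb from 143150001 to 144350000 was followed by 1400 kb.

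A segment of GGA2 from 54.325 to 61.685 Mb has been described as losing read coverage in HD3 cells, possibly by deletion from one homolog. The figure that the study cites for it is described as showing a marked loss of contacts close to the GGA2 centromere. The segment made up 4.92% of the GGA2 span. Most TADs there were small, and they were closely packed, with 32 TADs wholly inside the 7.36 Mb. Their median was 100 kb (95% interval 100 to 150 kb, order statistics, n = 32), and 20 of them, or 62.5% (95% exact binomial interval 43.7% to 78.9%), had 100 kb. Of the 274 TADs of GGA2 that did not touch the segment, 63 (23.0%) had 100 kb, and their median was 250 kb. A median of 100 kb is at the smallest TAD size of GGA2. The mean was 220 kb in the segment, whose largest TAD had 1500 kb, and 395 kb over the 274 TADs. The segment had 4.62 boundaries per Mb against 2.63 in the rest of GGA2. The 10 Mb before it had 3.8 per Mb and the 10 Mb after it 2.8. The density was uneven within the segment. Its part up to 56.25 Mb had 7.79 per Mb, and the longer rest had 3.50, below the 10 Mb before the segment. In windows of 5 Mb, the highest value on GGA2, 4.6 per Mb, was that from 50 to 55 Mb, mostly before the segment. As given above, GGAW, GGA26 and GGA27 had more per Mb over their whole spans than the segment as a whole. TADs covered 99.3% of the segment. The segment held 20 of the 84 TADs of 100 kb on GGA2 (23.8%), and 32 of all 308 TADs of GGA2.

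TADs in the segment fell into 2 sets, separated by a single bin that belonged to no TAD. Up to 56200000, the run of 15 TADs that began at 54300001 held only sizes of 100, 150 and 200 kb, 9 of them 100 kb. In order, its sizes were 100, 150, 200, 100, 100, 100, 200, 100, 100, 150, 100, 150, 100, 150 and 100 kb. From 56250001 on, small and large TADs were mixed, and TADs of 100 kb were no rarer. Of TADs wholly inside the segment, 12 of 18 (66.7%) had 100 kb there, beside 8 of 14 (57.1%) before. This second set started with 100, 300, 250, 100 and 100 kb. A TAD of 800 kb from 57100001 to 57900000 was followed by 3 TADs of 100 kb and by the TAD of 1500 kb from 58200001 to 59700000. After 1 further TAD of 100 kb came a TAD of 600 kb from 59800001 to 60400000, then 5 TADs of 100 kb in a row up to 60900000, and then a TAD of 600 kb from 60900001 to 61500000. The list holds 27 places with at least 3 adjoining TADs of 100 kb, of which 4 are on GGA2 and 3 of these lie in the segment. GGA2 held 308 of all 2389 TADs. Such places are also more likely where most TADs have 100 kb and adjoin, as in the segment. Only on GGAZ was such a place longer than the 5 TADs in the segment, with 6 TADs, and 4 other chromosomes had one of 5.

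**Figure D5:**
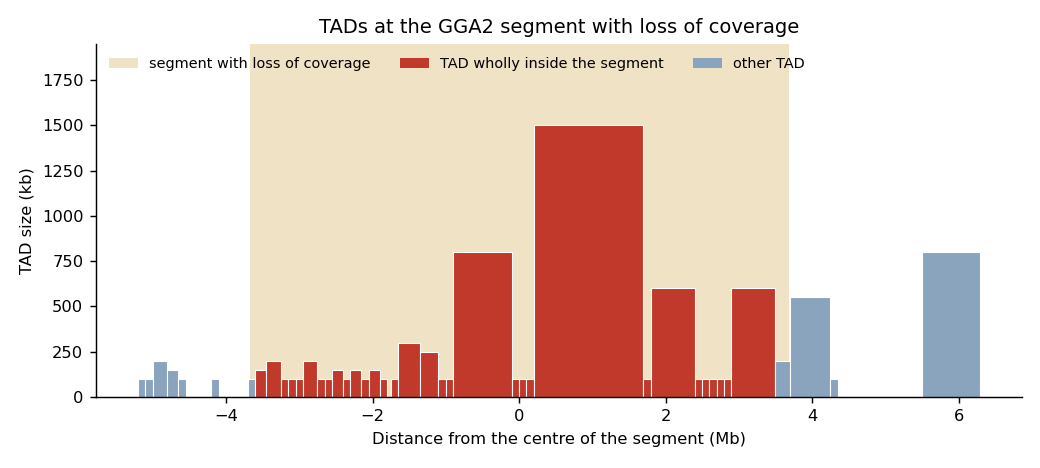
TADs at the segment of GGA2 with loss of coverage, drawn as bars whose width and height (kb) are both the TAD size, against the distance from the centre of the segment (Mb). The left part of the segment holds only TADs of 100 to 200 kb. The right part mixes TADs of 100 kb with larger ones, among them TADs of 800, 1500, 600 and 600 kb.

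The first limit of the segment lay in a TAD of 100 kb, from 54300001 to 54400000, and the other in a TAD of 200 kb, from 61500001 to 61700000. They were 25 and 15 kb from the nearest boundary, distances that TADs of this size keep small wherever a position falls in them. A stretch of 400 kb without TADs came before 54300001, whereas TADs continued past the far limit without a gap, with 550 kb from 61700001 to 62250000 and 100 kb up to 62350000. There the stretch of 1150 kb began, and the next TAD, of 800 kb, started at 63500001. The sequence before the segment also had many small TADs. In the 10 Mb before it, 12 of 25 TADs (48%, 95% exact binomial interval 27.8% to 68.7%) had 100 kb and the median was 150 kb, but only 67.3% of the sequence lay inside TADs. In the 10 Mb after it, 2 of 16 TADs (12.5%, interval 1.55% to 38.3%) had 100 kb, and the median was 300 kb. These intervals take TADs of a single map as independent, so whether they overlap that of the segment is no test of a difference.

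The window from 50 to 60 Mb, which holds most of the segment, had 39 TADs, 23 of them of 100 kb. Both were the highest numbers among the 89 full windows of the list, which leave out chromosomes of less than 10 Mb. The next were 38 TADs in a window of GGA10 and 16 TADs of 100 kb in a window of GGA5. On GGA1 and GGA3, windows held 3 to 12 TADs of 100 kb. Elsewhere on GGA2 such TADs were few in the first 40 Mb, where 4 windows had 1, 2, 2 and 0, and 10 were found from 40 to 50 Mb. Contact numbers along the chromosome were not analysed here, so the part of the loss of coverage in these sizes was not tested.

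Around the junction with the GGA1 copy, at 149.47 Mb, the list holds only small TADs. The junction lay inside the TAD from 149400001 to 149500000, 130 kb from the last TAD end. It was 30 kb from the nearer boundary of this TAD, a distance that a TAD of 100 kb keeps small wherever a position falls in it. After the TAD of 2000 kb that ends at 148450000, the last 8 TADs of GGA2 had sizes of 150, 200, 100, 100, 250, 150, 100 and 100 kb in order, all adjoining. Their median was 125 kb, against 400 kb for the first 8 TADs of the chromosome, which started with a TAD of 550 kb. Small last TADs were also found on GGA1 (median 100 kb over 8, none above 200 kb) and on GGAZ (125 kb), but not on GGA3 (300 kb) or GGA4 (425 kb). On GGA5 the last 8 had a median of 200 kb. The first 8 TADs had medians below the 400 kb of GGA2 on all of these chromosomes. They were 175 kb on GGA1, 100 kb on GGA3, 250 kb on GGA4, 100 kb on GGA5 and 150 kb on GGAZ. Which of the contacts at the junction belong to the normal and which to the derivative homolog cannot be told apart in the list.

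A single TAD of the list did not end on a bin edge, and it lies on GGA2 from 92900001 to 93830000 (930 kb). It stood alone, with a stretch of 20 kb between it and the next TAD.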

How the data were processed

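Hi-C libraries (DpnII) were made from 2 replicates of HD3 cells. The authors mapped reads to GalGal5 and built contact maps with Juicer (version 1.6 in the submitters' processing notes), pooled the contacts of the replicates, and applied Armatus to the heatmap at 50 kb resolution. They deposited 1 list of TAD starts and ends in bp. Both are counted from 0 there, and 1 was added to each for printing. A second pair of columns repeats these positions, and the last column holds a display colour. Their methods give a range for the Armatus parameter γ. Which γ within it applies to GGA2, and any filter on TADs, are not given in the sources used here. The depth per replicate cannot be read from the list.

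Size counts all bases from start to end. TADs adjoin where no base lies between them. The span of a chromosome stops where its last TAD ends. Intervals are exact binomial for shares and from order statistics for medians, both at 95%. The regions named were the 10 largest TADs with ties, the longest runs and stretches, the TADs at the segment with loss of coverage and at the junction, and the first and last TADs. The positions of the segment and the junction were taken from the text of the study. The members, these rules and the lists were chosen with earlier results of these data known. Computation used Python 3.11.15 with pandas 2.3.3 and numpy 2.4.6, intervals came from scipy 1.17.1, and plots from matplotlib 3.10.9. The functions were tested on simulated data. Alternatives left out TADs under 150 kb, or changed the summary, the span, the gap, the window and the membership of the segment. TADs of other cell types and compartments were not analysed here.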

Additional observations from a re-analysis of the deposited data

How the results depend on the processing

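Of 32 alternatives over 13 results, 23 were counted as the same. The rule was to stay within the interval of the value or, for counts and rates, within 1.5 times. For the share inside TADs no interval is given here, and its change below was counted as a move. Leaving out TADs under 150 kb moved the median of GGA2 from 250 to 325 kb and that of the segment with loss of coverage from 100 to 225 kb. It moved the share of GGA2 inside TADs from 77.2% to 71.7%. These changes follow from taking out the smallest TADs. The mean of GGA2 was 375 kb and its length-weighted median 600 kb. Counted by length, TADs of 100 kb made up 7.27% and those of at least 1 Mb 26.4%. TADs of at least 2 Mb were 1.30% of GGA2. There were 54 stretches of at least 200 kb in place of 95 of at least 100 kb. The difference of 50 kb between the medians of GGA2 and the other chromosomes was 0 kb against GGA1 and GGA3 alone. It was 29.9 kb with means and 25 kb with TADs under 150 kb left out. These values were counted among the 23, but no interval for this difference is given here, and it did not keep its size. Where a gap of 1 bin counted as adjoining, the run of GGA2 with the most TADs was not the one at its end but 36 TADs from 54300001 to 62350000, although the run at the end stayed longer in sequence (12700 against 8050 kb). With the TADs that touch the segment left out, an alternative chosen after seeing the data, 23.0% of GGA2 TADs had 100 kb and the median stayed at 250 kb. No replicate could be left out, because the list was made from combined contacts, and the depth behind a TAD is unknown.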
